A study of Homo sapiens with 23 samples.

Results

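HCT116 cells that had lost AGO1, AGO2 and AGO3 were compared with HCT116 cells that had lost AGO1 and AGO2, so that the difference by design was the added loss of AGO3. The members were chosen by the genotype in the sample labels. They were 3 samples with AGO1-/-, AGO2-/- and AGO3-/- (the triple knockout) and 3 samples with AGO1-/- and AGO2-/- (the double knockout), 6 of the 15 RNAseq samples and of the 23 samples in all. HCT116 is an established human colorectal carcinoma line of epithelial origin, and the knockout lines were obtained from it by CRISPR editing. RNAseq measured stranded libraries of total RNA from which ribosomal RNA had been removed. The wild-type (WT) line, with 3 samples, is given as the background level, and the AGO1-/- and AGO2-/- single knockout lines, with 3 samples each, were part of the fit and of a last comparison. Each genotype was 1 cell line, so genotype and line cannot be told apart, and whether the triple line was derived from the double line is not stated. The study calls its samples biological replicates, and where nothing says that they came from separate cultures the p-values measure only the spread between samples. With 3 samples against 3, the smallest p of an exact permutation test is 0.1. In bulk RNA, fewer cells with a transcript and less of it per cell cannot be told apart.

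The total of estimated counts was 40567975, 29274887 and 31172369 in the triple knockout samples and 30701840, 28405625 and 28294976 in the double knockout samples. Levels are given as CPM, counts scaled to a common library size by the trimmed mean of M values, always for replicates 1, 2 and 3 in that order. Fold changes are on the log2 scale, triple minus double knockout. The standard error (SE) given with them was worked back from the fold change and the F statistic of the test named next. A gene was called higher or lower when the quasi-likelihood test of edgeR gave a Benjamini-Hochberg adjusted p of 0.05 or less. Of 57875 genes listed, 22842 had enough counts to be tested. Where no sample of a line exceeded 3 counts of a gene, the ratio of summed counts takes the place of a fold change, with a 95% interval that covers counting error only.

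Argonaute proteins hold a microRNA (miRNA) and let its seed pair with matching bases in the 3′ untranslated region (3′UTR) of a messenger RNA. TNRC6 proteins then bind Argonaute and bring the CCR4-NOT deadenylase, which shortens the poly(A) tail and exposes the transcript to decapping and decay. In colorectal epithelial cells the miR-200 family restrains ZEB1 and other mesenchymal regulators, and let-7 restrains growth genes such as HMGA2.

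The mature miRNAs whose seed matches were counted are represented by 7 sequences, credited to RefSeq on GRCh38.p14, where 12 of 13 listed miRNAs were matched. They are shown because the 3′UTR matches described later rest on their seeds, bases 2 to 8, which are in capitals. The first 5 are miRNAs of colorectal cells, and miR-122-5p of liver and miR-1-3p of muscle stand for miRNAs of other tissues. No pair of the 7 shares a seed. Loci are chr11:122146568-122146589 (minus strand, 1 of 3) for let-7a-5p, chr7:130876748-130876769 (minus) for miR-29a-3p, chr13:91350618-91350640 (plus) for miR-17-5p, chr17:59841273-59841294 (plus) for miR-21-5p and chr12:6963742-6963764 (plus) for miR-200c-3p.
let-7a-5p: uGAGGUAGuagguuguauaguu
miR-29a-3p: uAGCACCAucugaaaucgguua
miR-17-5p: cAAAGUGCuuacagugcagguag
miR-21-5p: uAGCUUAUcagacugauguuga
miR-200c-3p: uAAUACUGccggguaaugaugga
miR-122-5p: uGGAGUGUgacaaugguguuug
miR-1-3p: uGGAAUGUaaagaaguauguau

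Matches of this kind are illustrated by 7 windows of 22 bases from 3′UTR exons of genes described later, read from hg38 with the Ensembl canonical transcripts of GENCODE 44. Capitals mark the 8 bases that pair with seed bases 2 to 8 and the A that follows them. They lie at chr12:65963299-65963320 (plus strand) in HMGA2, chr9:124522310-124522331 (minus) in NR6A1, chr2:74105411-74105432 (plus) in TET3, chr18:48920243-48920264 (minus) in SMAD7, chr22:32860395-32860416 (plus) in TIMP3, chr10:31527619-31527640 (plus) in ZEB1 and chr6:163573220-163573241 (plus) in QKI. ZEB1 has 3 such 8-base matches to miR-200c-3p in its 3′UTR, TET3 has 3 to miR-29a-3p, and HMGA2 has 1 to let-7a-5p. A match is a description of the letters and not a measured binding site.
HMGA2, let-7a-5p match: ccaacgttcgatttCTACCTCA
NR6A1, let-7a-5p match: gttgacaaagatgaCTACCTCA
TET3, miR-29a-3p match: tctcacaaaataacTGGTGCTA
SMAD7, miR-21-5p match: gtttagactttaacATAAGCTA
TIMP3, miR-21-5p match: acccacatggggacATAAGCTA
ZEB1, miR-200c-3p match: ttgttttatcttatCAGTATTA
QKI, miR-200c-3p match: aatgccttggttctCAGTATTA

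The RNA of AGO3 was lower in the triple knockout, that of AGO2 and AGO4 was higher, and that of AGO1 did not differ beyond the test. AGO3 was at 51.8, 57.4 and 46.1 CPM in the triple and 103, 114 and 119.5 CPM in the double knockout. All 3 triple knockout samples were below all 3 double knockout samples, which were close to the WT mean of 112 CPM, and the change was called (-1.11, SE 0.12, edgeR adjusted p = 1.13e-05). An edited gene can still be transcribed, so these RNA levels do not measure protein. AGO1, edited in both lines, was at 35.5, 33.1 and 28.7 CPM in the triple and 35.5, 37.8 and 36.6 CPM in the double knockout. Both lines were far below the WT mean of 131 CPM and their values touched, with no call between them (-0.18, SE 0.12, edgeR adjusted p = 0.336). AGO2, the Argonaute with slicer activity and also edited in both lines, was at 518, 558 and 538 CPM in the triple and 321, 332 and 364 CPM in the double knockout. The triple knockout samples were all above the double knockout samples, whose values lay below the WT mean of 406 CPM (0.67, SE 0.10, edgeR adjusted p = 0.000236). Against WT it was higher in the triple knockout (0.40, edgeR adjusted p = 0.00477) and not called in the double knockout (-0.26, adjusted p = 0.0924), so its RNA alone cannot check the label of either line. AGO4, the paralog that was not edited, was at 69.4, 59.1 and 55.9 CPM in the triple and 21.9, 33.5 and 33.9 CPM in the double knockout. The triple knockout samples were again all higher (1.05, SE 0.23, edgeR adjusted p = 0.00387), and the WT mean was 25.1 CPM.

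Per kilobase of exon, the mean level of AGO2 RNA was 33.9 CPM in the triple and 21.4 CPM in the double knockout. AGO4 had 8.28 CPM per kilobase in the triple and 4.01 in the double knockout, AGO3 had 2.45 and 5.30, and AGO1 had 2.31 and 2.61. AGO2 thus remained the most abundant Argonaute RNA per length in both lines, while AGO3 and AGO4 changed places. Summed over AGO1 to AGO4, the level was 46.99, 48.21 and 45.71 CPM per kilobase in the triple knockout samples and 30.58, 33.55 and 35.82 in the double knockout samples. The summed Argonaute RNA was therefore higher in every triple knockout sample, a sum that includes RNA of edited genes.

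**Figure D1:**
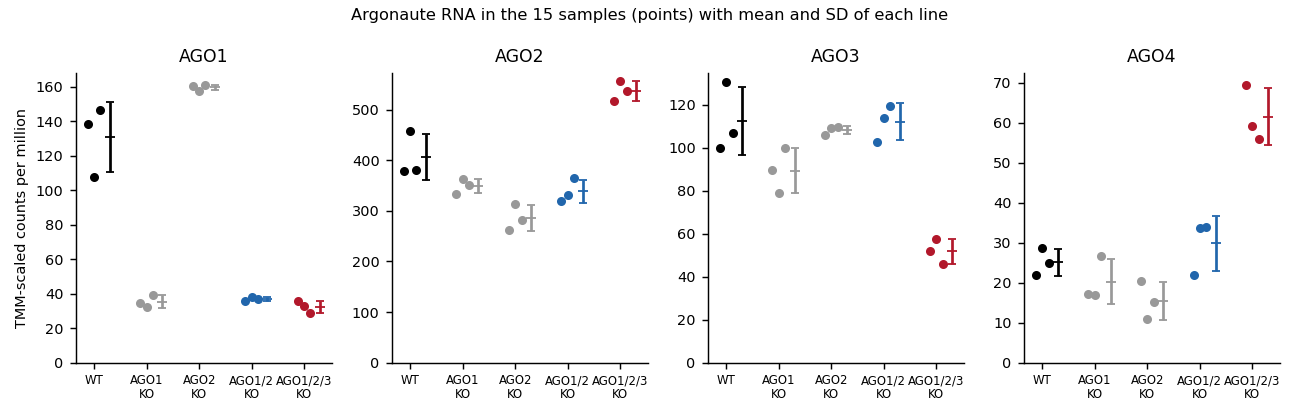
RNA level of AGO1, AGO2, AGO3 and AGO4 in CPM (vertical axis) in each of the 15 RNAseq samples by line, with the mean and SD of the 3 samples of each line. AGO3 was lower in the triple than in the double knockout samples, and AGO2 and AGO4 were higher.

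Added loss of AGO3 went with a changed level of many transcripts in both directions, most of them by less than 2-fold. Of the 22842 genes tested, 5015 were called: 2720 (11.9%) were higher and 2295 (10.0%) were lower in the triple knockout. Scaling by total counts alone gave 2249 higher and 2687 lower. Among the called genes, 70.0% changed by less than 2-fold, and 677 higher and 828 lower genes reached 2-fold or more. The median change of all genes tested was -0.01, the median size of a change was 0.292 and the median SE was 0.201. Protein-coding genes were called higher more often than lower (2450 and 1609 of 14830, 16.5% and 10.85%, median 0.05), and long noncoding RNAs lower more often than higher (428 and 147 of 4815, median -0.12). Every share of a gene list given later is to be read beside 11.9% higher and 10.0% lower, and, as the lists hold mostly protein-coding genes, beside the shares of these. 

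**Figure D2:**
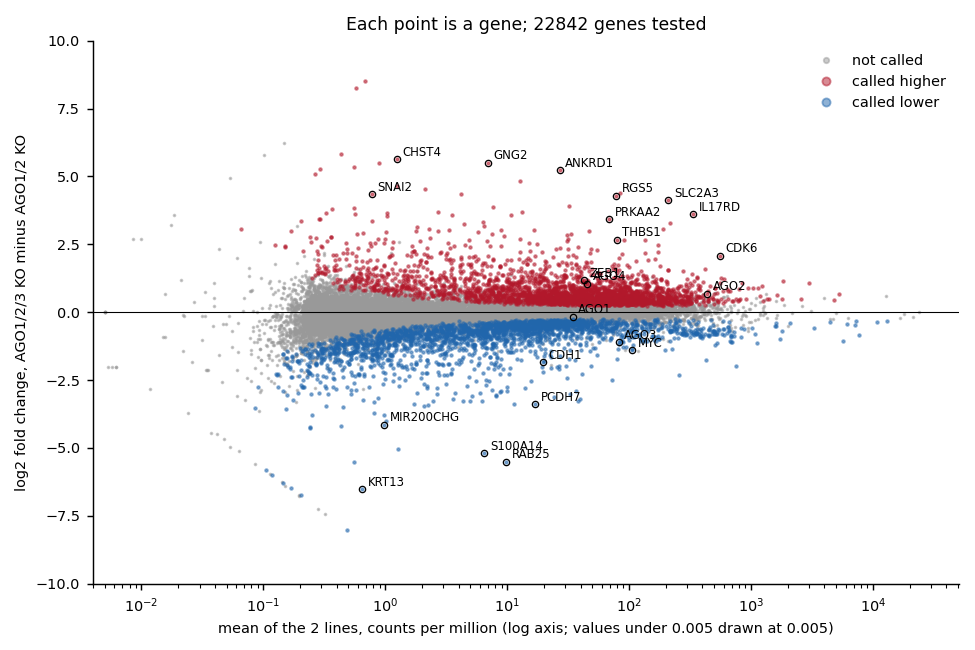
Mean level over the 6 samples in CPM (horizontal log axis, means under 0.005 drawn at 0.005) and log2 fold change, triple minus double knockout (vertical axis), of the 22842 genes tested, one point per gene with called genes coloured and named examples labelled. RAB25 and S100A14 stood at the lower edge, and GNG2 and ANKRD1 at the upper edge.

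The largest increases were in genes of varied function. The 15 protein-coding genes with the largest increase, among 2368 called higher with at least 1 CPM and no overlap between the lines, rose by 3.65 to 5.50 on the log2 scale, CHST4 aside, whose double knockout level was too low for an exact fold. ANKRD1, a nuclear ankyrin repeat protein induced by YAP, was at 29.5, 49.7 and 79.0 CPM in the triple and 0.801, 1.72 and 1.73 CPM in the double knockout. Each triple knockout sample was more than 10 times as high as any double knockout sample, and the WT mean of 0.705 CPM was also low (5.22, SE 0.35, edgeR adjusted p = 1.46e-07). GNG2, a G protein gamma subunit, was at 14.2, 14.4 and 12.4 CPM in the triple and 0.192, 0.310 and 0.405 CPM in the double knockout. Its triple knockout samples were high and close to each other (5.50, SE 0.38, edgeR adjusted p = 1.73e-07). SLC2A3, the glucose transporter GLUT3, was at 268, 423 and 501 CPM in the triple and 23.7, 23.0 and 22.1 CPM in the double knockout. It was the most abundant of the 15 in CPM, and again the lines did not overlap (4.12, SE 0.35, edgeR adjusted p = 1.11e-06). RGS5, which ends signalling by G proteins, was at 219, 125 and 103 CPM in the triple and 6.15, 6.59 and 10.1 CPM in the double knockout. Its lowest triple knockout value was still far above its highest double knockout value (4.29, SE 0.26, edgeR adjusted p = 4.98e-08). CHST4, a sulfotransferase that acts on glycans, had 4 counts in the 3 double knockout samples together, and the ratio of summed counts was 53.01 with a 95% interval of 20.4 to 196.

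The other genes of that set were PMEPA1, an inhibitor of TGF-beta signalling (4.83), SAMD9L, an interferon-inducible inhibitor of translation (4.56), the tetraspanin-like TM4SF18 (4.39), EDN1, which encodes endothelin (4.34), the transcription factor GLIS3 (3.92), ENTREP2 (3.87), SERTAD4 (3.69), the lysophospholipid receptor GPR55 (3.67), the kinase MAP2K6 that activates p38 (3.65) and CA8, a carbonic anhydrase-related protein (4.67). TM4SF18 was at 118, 175 and 189.8 CPM in the triple and 6.63, 9.93 and 6.52 CPM in the double knockout. It was high in all 3 triple knockout samples and stood above the WT mean of 1.03 CPM in the double knockout too. The value of CA8 rested on few counts in the double knockout and was 6.80 without AGO1/2 knockout replicate 1. All these genes were called (edgeR adjusted p from 3.05e-09 to 0.000228).

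The genes with the largest decreases were of varied function too. The 15 protein-coding genes with the largest decrease, among 1431 called lower by the same rule, fell by 3.19 to 5.52 on the log2 scale. RAB25, a small GTPase of epithelial membrane recycling, was at 0.561, 0.350 and 0.305 CPM in the triple and 16.5, 20.3 and 21.2 CPM in the double knockout. All 3 triple knockout samples were below 1 CPM and the double knockout samples were themselves below the WT mean of 34.6 CPM (-5.52, SE 0.20, edgeR adjusted p = 8.21e-10). S100A14, a calcium-binding protein of epithelial cells, was at 0.357, 0.350 and 0.305 CPM in the triple and 5.70, 11.2 and 21.1 CPM in the double knockout. The triple knockout samples were alike and low, and the double knockout samples, spread widely, were themselves below the WT mean of 102 CPM (-5.20, SE 0.64, edgeR adjusted p = 3.3e-05). PCDH7, a protocadherin, was at 3.09, 2.77 and 2.98 CPM in the triple and 19.1, 31.5 and 43.0 CPM in the double knockout. It was lower in the double knockout than in WT (mean 181 CPM) and lower again in the triple knockout (-3.40, SE 0.26, edgeR adjusted p = 4.42e-07). KRTCAP3, keratinocyte-associated protein 3, was at 0.663, 0.841 and 0.644 CPM in the triple and 5.99, 6.79 and 6.85 CPM in the double knockout. Its samples were close within each line and far apart between the lines (-3.19, SE 0.16, edgeR adjusted p = 8.36e-09). SUSD2, a membrane protein, was at 8.75, 6.83 and 5.83 CPM in the triple and 64.0, 62.0 and 79.5 CPM in the double knockout. Here the double knockout was far above the WT mean of 11.5 CPM and the triple knockout was below it (-3.26, SE 0.17, edgeR adjusted p = 1.15e-08).

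The serine proteases PRSS33 (-3.42) and PRSS22 (-3.40), the neuropeptide precursor VGF (-3.28) and the olfactory receptor genes OR51B4 (-3.39) and OR51B5 (-3.20) belonged to the same set, each called (edgeR adjusted p from 2.48e-09 to 2.44e-05). The mitochondrial creatine kinase genes CKMT1A (-3.26) and CKMT1B (-3.45) are nearly identical copies, so how counts divide between them is uncertain. MEIOSIN, a regulator of meiotic entry, was at 0.0510, 0.105 and 0.203 CPM in the triple and 1.73, 1.69 and 2.32 CPM in the double knockout. Its triple knockout values rested on few counts, and the log2 fold change of -4.02 became -4.64 without AGO1/2/3 knockout replicate 3. CSTA, which encodes the cysteine protease inhibitor cystatin A, was at 0.102, 0.0350 and 0.0678 CPM in the triple and 1.06, 1.31 and 5.12 CPM in the double knockout. The high sample was AGO1/2 knockout replicate 3, and without it the log2 fold change went from -5.03 to -4.00 (edgeR adjusted p = 0.0306). CHAC1, a glutathione-degrading enzyme induced by ATF4, was at 0.919, 1.19 and 0.644 CPM in the triple and 2.85, 3.14 and 20.9 CPM in the double knockout. Its fold change of -3.28 (edgeR adjusted p = 0.029) was -1.73 without AGO1/2 knockout replicate 3 (adjusted p = 0.251), and the call was also lost without AGO1/2/3 knockout replicate 1, 2 or 3 (adjusted p = 0.0861, 0.0718 and 0.0966).

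**Figure D3:**
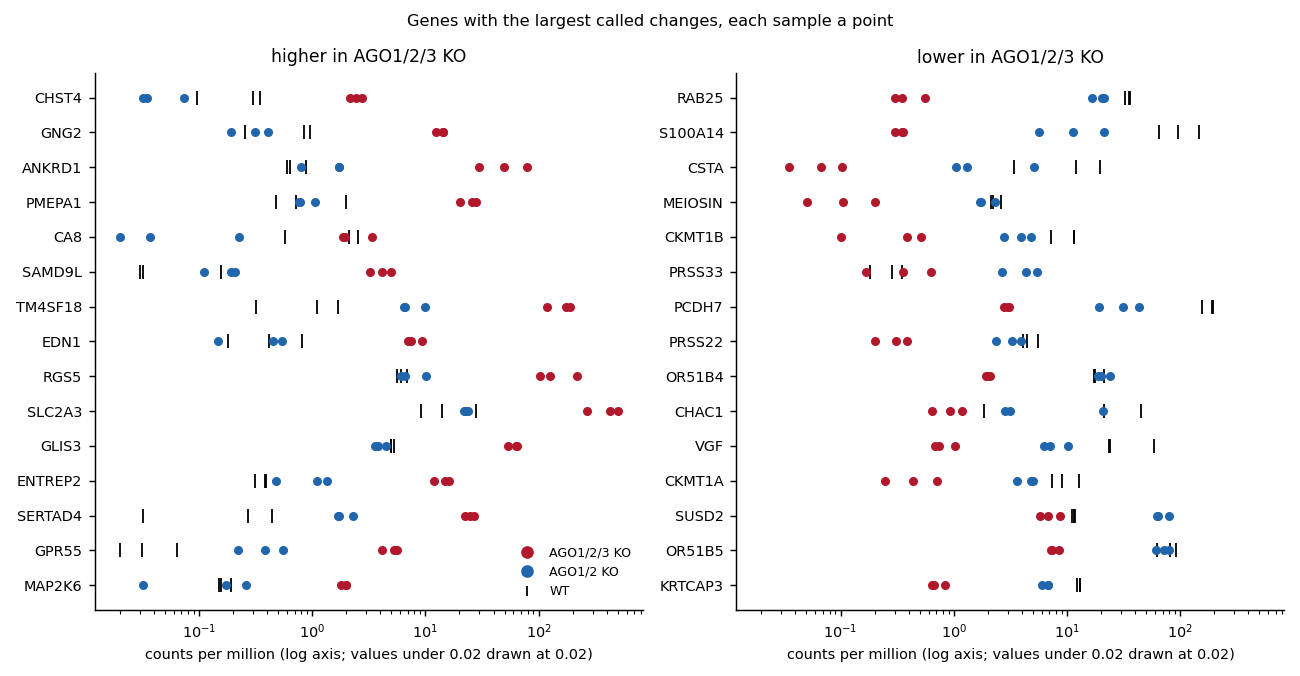
Level in CPM (log axis, values under 0.02 drawn at 0.02) of the 15 genes that rose most and the 15 that fell most, one point per sample of the triple and the double knockout and a tick per WT sample. The 3 points of each line did not overlap with those of the other for any of the 30 genes, which the choice of genes required.

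The Argonaute partners and the enzymes that make miRNAs moved upward in part, and the decay machinery was called higher at about the share of protein-coding genes. Among 7 Argonaute and TNRC6 genes tested, 4 were higher, 1 (AGO3) was lower and 2 were not called, with a median of 0.67. TNRC6A, a scaffold that links Argonaute to the deadenylases, was at 255, 262 and 289 CPM in the triple and 179.7, 150.3 and 149.8 CPM in the double knockout. TNRC6C, its paralog, was at 119, 127 and 132 CPM in the triple and 69.9, 57.8 and 67.2 CPM in the double knockout. Both were higher in every triple knockout sample (0.75, SE 0.16, edgeR adjusted p = 0.00402 for TNRC6A and 0.96, SE 0.10, edgeR adjusted p = 6.95e-06 for TNRC6C), and TNRC6B was not called (0.19, edgeR adjusted p = 0.261). Of 12 genes of miRNA processing, 4 were higher and 8 were not called, with a median of 0.05. DICER1, which cuts precursor hairpins into miRNA duplexes, was at 268, 279.5 and 297 CPM in the triple and 169, 163 and 164 CPM in the double knockout. DGCR8, the RNA-binding partner of DROSHA, was at 70.1, 67.4 and 67.4 CPM in the triple and 52.1, 33.7 and 40.3 CPM in the double knockout. All 3 triple knockout samples of both genes lay above all double knockout samples (0.77, SE 0.10, edgeR adjusted p = 8.66e-05 for DICER1 and 0.70, SE 0.16, edgeR adjusted p = 0.00513 for DGCR8). ZSWIM8, which directs degradation of Argonaute bound to certain targets, had a log2 fold change of 0.54 (edgeR adjusted p = 0.0128) that was 0.41 (adjusted p = 0.0736) without AGO1/2/3 knockout replicate 1 and 0.43 (adjusted p = 0.0797) without AGO1/2 knockout replicate 3.

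Of 18 genes of deadenylation and decapping, 3 (16.7%, beside 16.5% of protein-coding genes) were higher and 15 were not called, with a median of 0.14. DCP2, the decapping enzyme, was at 379.7, 384 and 409 CPM in the triple and 193, 192 and 193 CPM in the double knockout. It was higher in every triple knockout sample (1.02, SE 0.12, edgeR adjusted p = 2.37e-05). The other called genes, the exonuclease gene XRN1 (0.31) and the deadenylase gene CNOT8 (0.29), were close to the threshold, and the count fell from 3 to 1 without AGO1/2/3 knockout replicate 1, 2 or 3 or AGO1/2 knockout replicate 1 or 2, and to 2 without AGO1/2 knockout replicate 3. Among 15 host transcripts of miRNA genes, 2 were higher and 2 were lower, with a median of 0.04. MIR200CHG, the host of miR-200c and miR-141, was at 0.128, 0.105 and 0.0678 CPM in the triple and 2.27, 1.76 and 1.58 CPM in the double knockout. It was low in all triple knockout samples and did not overlap with the double knockout (-4.15, SE 0.27, edgeR adjusted p = 1.19e-07). The other calls were lost without single libraries. The count of higher host transcripts was 1 without AGO1/2/3 knockout replicate 3 or AGO1/2 knockout replicate 2, and 0 by edgeR without AGO1/2/3 knockout replicate 1 or AGO1/2 knockout replicate 3, beside 2 by DESeq2 and 2 at an unadjusted p under 0.05 with all samples. The count of lower ones was 1 without AGO1/2/3 knockout replicate 1 or 2 or AGO1/2 knockout replicate 2 or 3.

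Known targets of abundant miRNAs, in 5 lists for which a seed match was not required, were called higher more often than all genes tested (11.9%), protein-coding genes (16.5%) and genes with the longest 3′UTRs (26.2%). Of 29 let-7 targets tested, 12 (41.4%) were higher and 3 were lower, with a median of 0.28. CDK6, a kinase that drives entry into S phase, was at 820.2, 938 and 941 CPM in the triple and 220.2, 235 and 186 CPM in the double knockout. HMGA2, a chromatin protein with a let-7a-5p match printed above, was at 1494, 1636 and 1722 CPM in the triple and 762, 894 and 858 CPM in the double knockout. The samples of each line were close together and the lines did not overlap for either gene (2.07, SE 0.18, edgeR adjusted p = 1.13e-06 for CDK6 and 0.95, SE 0.10, edgeR adjusted p = 8.81e-06 for HMGA2). NR6A1, an orphan nuclear receptor with the other let-7a-5p match printed, was at 49.8, 57.7 and 60.3 CPM in the triple and 24.1, 22.6 and 20.7 CPM in the double knockout. It was higher in every triple knockout sample (1.31, SE 0.11, edgeR adjusted p = 8.3e-07). THBS1, which encodes the matrix protein thrombospondin (2.68), the cyclin gene CCND1 (1.16) and the receptor gene TGFBR1 (1.04) were higher as well (edgeR adjusted p = 0.000125, 3.94e-05 and 5.33e-06). No let-7a-5p match was found for CDK6, THBS1, CCND1 or MYC in the 3′UTR used. Only full 7-base matches were counted, and the study itself describes a let-7 site in the MYC 3′UTR. The 3 lower members were MYC (-1.41), the chromatin protein gene HMGA1 (-1.13) and the RNA-binding protein gene IGF2BP3 (-0.64), of which the IGF2BP3 call was lost without AGO1/2/3 knockout replicate 2 or 3 or AGO1/2 knockout replicate 2 or 3 (adjusted p = 0.0928, 0.0772, 0.0751 and 0.136).

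Of 19 miR-29 targets tested, 11 (57.9%) were higher and 1 was lower, with a median of 0.66. SPARC, a collagen-binding matrix protein, was at 53.02, 52.7 and 51.1 CPM in the triple and 3.71, 12.3 and 15.3 CPM in the double knockout. It was high in each triple knockout sample and low in each double knockout sample (2.33, SE 0.38, edgeR adjusted p = 0.000436). TET3, a methylcytosine dioxygenase with the miR-29a-3p match shown, was at 118, 126 and 119 CPM in the triple and 71.7, 63.5 and 54.2 CPM in the double knockout. TET3 was higher in every triple knockout sample (0.94, SE 0.12, edgeR adjusted p = 6.56e-05), as were TET1 (0.97), TET2 (0.62), the laminin gene LAMC1 (0.88) and the collagen gene COL1A1 (1.12), with edgeR adjusted p = 4.24e-05, 6.22e-05, 0.000144 and 0.000148. COL3A1, another collagen gene, had 6 counts in the double knockout samples together, and its ratio was 6.89 with a 95% interval of 2.94 to 19.7. The lower member was the DNA methyltransferase gene DNMT3B (-0.49, edgeR adjusted p = 0.0471), whose call was lost without AGO1/2/3 knockout replicate 1, 2 or 3 or AGO1/2 knockout replicate 1 or 3 (adjusted p = 0.134, 0.0944, 0.0883, 0.161 and 0.118).

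Among 24 targets of the miR-17 seed family, 11 (45.8%) were higher and 13 were not called, with a median of 0.34. SMAD7, an inhibitor of TGF-beta signalling, was at 29.1, 31.1 and 34.4 CPM in the triple and 9.90, 5.21 and 5.27 CPM in the double knockout. It was higher in all triple knockout samples (2.21, SE 0.25, edgeR adjusted p = 1.87e-05). CDKN1A, which encodes the cell cycle inhibitor p21, was not called (0.14, SE 0.20, edgeR adjusted p = 0.697). Of 19 miR-200 targets, 10 (52.6%) were higher and 9 were not called, with a median of 0.52. ZEB1, a repressor of epithelial genes with the miR-200c-3p match shown, was at 54.4, 58.5 and 65.9 CPM in the triple and 23.1, 28.1 and 28.3 CPM in the double knockout. FN1, which encodes fibronectin, was at 102, 85.6 and 86.0 CPM in the triple and 17.8, 18.5 and 19.01 CPM in the double knockout. The triple knockout samples of both genes stood above the double knockout samples (1.17, SE 0.14, edgeR adjusted p = 2.13e-05 for ZEB1 and 2.31, SE 0.15, edgeR adjusted p = 1.47e-07 for FN1). QKI, an RNA-binding protein with the other miR-200c-3p match (0.97), and FSTL1, a secreted glycoprotein (1.73), were higher too (edgeR adjusted p = 0.00233 and 6.96e-07), and ZEB2 was not called (0.43, adjusted p = 0.106; 0.58 without AGO1/2/3 knockout replicate 1, adjusted p = 0.049).

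Of 16 miR-21 targets tested, 10 (62.5%) were higher and 6 were not called, with a median of 0.63. TIMP3, an inhibitor of matrix metalloproteinases with a miR-21-5p match printed above, was at 15.2, 17.1 and 19.1 CPM in the triple and 3.52, 5.10 and 5.01 CPM in the double knockout. Its triple knockout samples were all higher (1.91, SE 0.22, edgeR adjusted p = 1.69e-05). The deubiquitinase gene YOD1 (1.21), the ERK inhibitor gene SPRY2 (1.0), the tropomyosin gene TPM1 (1.0) and RECK (1.10), which encodes a membrane-anchored protease inhibitor, were higher (edgeR adjusted p = 5.2e-05, 0.000942, 8.81e-06 and 6.14e-05), TPM1 with no miR-21-5p match in the 3′UTR used. PDCD4, which encodes an inhibitor of translation and is a much-used miR-21 reporter, was at 39.1, 33.3 and 29.1 CPM in the triple and 34.2, 68.6 and 82.8 CPM in the double knockout. Its lines overlapped and it was not called (-0.87, SE 0.32, edgeR adjusted p = 0.0663), while without AGO1/2 knockout replicate 1 the value was -1.17 (adjusted p = 0.0128).

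Across all genes, the change rose with the length of the 3′UTR, and the difference between genes with and without a seed match varied with that length. The Spearman correlation between 3′UTR length and log2 fold change was 0.229 over 14752 genes, a description, since genes are not independent. In the tertile with the shortest 3′UTRs, 8 to 726 bases, the median was -0.07, with 7.79% of genes higher and 16.4% lower. In the middle tertile, 727 to 2153 bases, the median was 0.06, with 15.8% higher and 9.72% lower. In the tertile with the longest 3′UTRs, 2154 to 32870 bases, the median was 0.14, with 26.2% higher and 6.30% lower. The calls thus moved from mostly lower to mostly higher with 3′UTR length.

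The 1655 genes with a let-7a-5p seed match had a median of 0.13, and the 13097 without one had 0.04. For miR-29a-3p the medians were 0.15 with a match (2353 genes) and 0.03 without, for miR-21-5p 0.15 (1424 genes) and 0.04, for miR-17-5p 0.12 (3660 genes) and 0.02, and for miR-200c-3p 0.14 (2746 genes) and 0.02. Genes with a match to miR-122-5p had a median of 0.09 and those without one 0.04, and for miR-1-3p the medians were 0.11 and 0.04. Within the tertile with the longest 3′UTRs the medians with and without a match were 0.15 and 0.14 for let-7a-5p, 0.18 and 0.12 for miR-29a-3p, 0.16 and 0.13 for miR-27a-3p, 0.14 and 0.14 for miR-125b-5p, 0.18 and 0.13 for miR-21-5p, 0.16 and 0.12 for miR-16-5p, 0.14 and 0.14 for miR-17-5p, 0.18 and 0.12 for miR-19b-3p, 0.16 and 0.12 for miR-200c-3p, 0.16 and 0.13 for miR-30c-5p, 0.12 and 0.14 for miR-122-5p and 0.15 and 0.14 for miR-1-3p. Within the middle tertile they were 0.09 and 0.06 for let-7a-5p, 0.11 and 0.05 for miR-29a-3p, 0.09 and 0.05 for miR-27a-3p, 0.02 and 0.07 for miR-125b-5p, 0.11 and 0.06 for miR-21-5p, 0.06 and 0.06 for miR-16-5p, 0.08 and 0.06 for miR-17-5p, 0.08 and 0.06 for miR-19b-3p, 0.13 and 0.05 for miR-200c-3p, 0.12 and 0.05 for miR-30c-5p, 0.05 and 0.06 for miR-122-5p and 0.04 and 0.06 for miR-1-3p. Within the tertile with the shortest they were 0.02 and -0.07 for let-7a-5p, 0.04 and -0.08 for miR-29a-3p, -0.09 and -0.07 for miR-27a-3p, -0.13 and -0.07 for miR-125b-5p, 0.03 and -0.07 for miR-21-5p, -0.03 and -0.08 for miR-16-5p, 0.02 and -0.08 for miR-17-5p, -0.04 and -0.07 for miR-19b-3p, 0.05 and -0.08 for miR-200c-3p, 0.07 and -0.08 for miR-30c-5p, -0.07 and -0.07 for miR-122-5p and -0.02 and -0.07 for miR-1-3p. The part of 3′UTR length in these differences was not tested. For miR-27a-3p, miR-125b-5p, miR-16-5p, miR-19b-3p and miR-30c-5p the median with a match over all lengths was 0.13, 0.08, 0.12, 0.14 and 0.15, beside 0.05 for all genes with a 3′UTR.

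**Figure D4:**
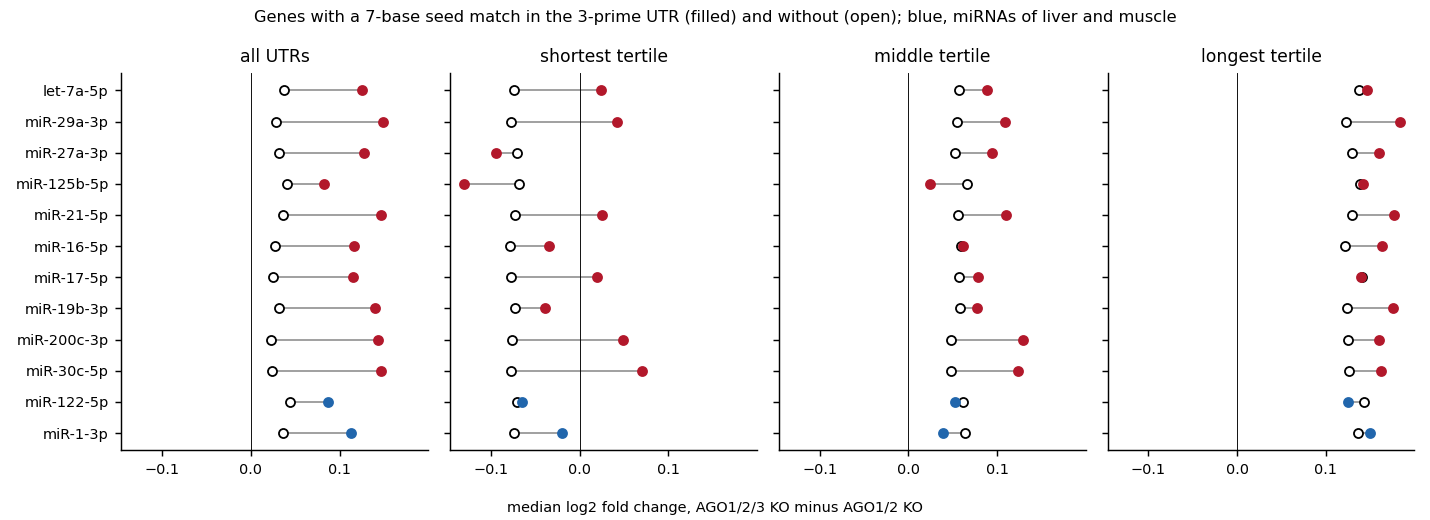
Median log2 fold change, triple minus double knockout (horizontal axis), of genes with at least 1 seed match in the 3′UTR (filled points) and without one (open points) for each of 12 miRNAs, over all 3′UTRs and in the tertiles with the shortest, middle and longest 3′UTRs, with the miRNAs of liver and muscle in blue. Medians rose from the shortest to the longest tertile for genes with and without a match.

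More epithelial genes were called lower than higher, and more mesenchymal genes higher than lower. Of 34 genes of epithelial junctions and polarity tested, 12 (35.3%) were lower, 5 were higher and 17 were not called, with a median of -0.12. CDH1, which encodes E-cadherin of the adherens junction, was at 8.73, 9.21 and 7.76 CPM in the triple and 27.1, 29.5 and 36.2 CPM in the double knockout. CLDN7, a tight junction claudin, was at 13.8, 10.7 and 9.02 CPM in the triple and 26.9, 32.5 and 41.3 CPM in the double knockout. Every triple knockout sample of both genes lay below every double knockout sample (-1.85, SE 0.25, edgeR adjusted p = 7.67e-05 for CDH1 and -1.58, SE 0.29, edgeR adjusted p = 0.000999 for CLDN7), and the WT means were 97.7 and 109.6 CPM. MAL2, which sorts cargo to the apical membrane, was at 0.510, 0.315 and 0.373 CPM in the triple and 2.11, 2 and 2.54 CPM in the double knockout. It was low in both lines beside the WT mean of 189 CPM and lowest in the triple knockout (-2.43, SE 0.23, edgeR adjusted p = 3.37e-06). ESRP1, a splicing factor of epithelial isoforms (-1.33), the proteases PRSS8 (-1.30) and ST14 (-1.03), the transcription factor GRHL2 (-0.85) and the adhesion molecule EPCAM (-0.83) were lower, with edgeR adjusted p = 0.00171, 0.000186, 9.51e-05, 0.00665 and 2.37e-05. The scaffold gene PALS1 (0.71) was among the 5 higher members (edgeR adjusted p = 0.00162). Higher members numbered 2 without AGO1/2/3 knockout replicate 3 or AGO1/2 knockout replicate 1 and 3 without AGO1/2 knockout replicate 2.

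Of 30 mesenchymal and matrix genes tested, 13 (43.3%) were higher and 1, the tropomyosin gene TPM2 (-0.81), was lower, and 16 were not called, with a median of 0.55, and 3 were lower without AGO1/2 knockout replicate 3. VIM, which encodes the intermediate filament vimentin, was at 42.7, 49.0 and 64.8 CPM in the triple and 24.6, 21.6 and 25.8 CPM in the double knockout. LOXL2, which crosslinks collagen, was at 122, 136 and 137 CPM in the triple and 25.6, 35.8 and 37.3 CPM in the double knockout. Both were higher in all triple knockout samples (1.12, SE 0.22, edgeR adjusted p = 0.00153 for VIM and 2.0, SE 0.28, edgeR adjusted p = 0.000111 for LOXL2). SNAI2, a repressor of CDH1, had 139 counts in the triple and 6 in the double knockout samples, a ratio of 20.8 with a 95% interval of 9.33 to 57.7, and its WT mean was 0.322 CPM. SNAI1, its paralog, was not called (-0.62, SE 0.22, edgeR adjusted p = 0.0526; -0.80, adjusted p = 0.0231, without AGO1/2 knockout replicate 3), and neither was CDH2, which encodes N-cadherin (1.37, SE 0.55, edgeR adjusted p = 0.092; 1.79, adjusted p = 0.0264, without AGO1/2/3 knockout replicate 1). Of the 10 keratin genes tested, 5 were lower and 5 were not called, with a median of -0.49. KRT19, a keratin of simple epithelia, was at 339.9, 353 and 373 CPM in the triple and 588, 616 and 435 CPM in the double knockout. KRT23 was at 3.16, 2.42 and 2.03 CPM in the triple and 12.2, 19.8 and 20.1 CPM in the double knockout. Their triple knockout samples were all lower (-0.62, SE 0.15, edgeR adjusted p = 0.00727 for KRT19 and -2.76, SE 0.25, edgeR adjusted p = 2.09e-06 for KRT23). KRT13 had 1 count in the triple and 114 in the double knockout samples, a ratio of 127 with a 95% interval of 22.3 to 5055, the 1 count being in replicate 2. KRT20 was lower (-3.03, edgeR adjusted p = 8.27e-05; -3.70 without AGO1/2/3 knockout replicate 1), and the call of KRT7 (-2.79, adjusted p = 0.0176) was lost without AGO1/2/3 knockout replicate 1 or 3 (adjusted p = 0.0718 and 0.0521). The medians of these lists were the same with KRT13, SNAI2 and COL3A1 set at the near end of their counting intervals.

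Among 13 intestinal transcription factors tested, 5 were higher and 3 were lower, with a median of 0.32. ELF3, an epithelial ETS factor, was at 8.22, 6.27 and 6.68 CPM in the triple and 33.0, 33.0 and 30.9 CPM in the double knockout. It was lower in all triple knockout samples (-2.19, SE 0.24, edgeR adjusted p = 1.39e-05), as were FOXA3 (-1.15) and HNF4A (-0.55), regulators of gut differentiation (edgeR adjusted p = 0.000123 and 0.00812). FOXA1 (1.58) and EHF (0.72) were higher, with edgeR adjusted p = 0.00114 and 0.00041, and the count of higher factors was 3 without AGO1/2/3 knockout replicate 3 or AGO1/2 knockout replicate 3. CDX2, a master regulator of intestinal identity, was not called (-0.38, SE 0.15, edgeR adjusted p = 0.0795). Only 6 of 22 genes of colorectal differentiation had enough counts to be tested. Of these, 1, the mucin gene MUC13, was higher and 5 were not called, with a median of 0.05 that was below 0 when 10 counts were required in every sample, and that call (1.58, edgeR adjusted p = 0.0137) was lost without AGO1/2/3 knockout replicate 1 or AGO1/2 knockout replicate 3 (adjusted p = 0.0662 and 0.0648).

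The label of a colorectal epithelial line was checked with 10 markers, of which 8 were tested and 4 (EPCAM, KRT19, CDH1 and CLDN7) were lower. The markers summed to 1645, 1954 and 2130 CPM in the triple and 2666, 2568 and 2193 CPM in the double knockout samples, with KRT8 the most abundant. Epithelial keratins were thus abundant in all samples, and VIL1 and LGALS4, which mark differentiated enterocytes, were too low to be tested. The 9 fibroblast markers summed to 30.5, 27.6 and 29.2 CPM in the triple and 16.5, 15.7 and 13.6 CPM in the double knockout samples. COL1A1 made up most of that sum, 2 of 5 tested markers (COL1A1 and COL3A1) were higher, and 3 of the 9 (LUM, THY1 and FAP) had 3 counts or fewer in each of the 6 samples. The 7 endothelial markers summed to 3.16, 3.54 and 3.08 CPM and 2.72, 3.83 and 3.87 CPM, with PECAM1 the most abundant, CLDN5 at 3 counts or fewer in each sample and 0 of 4 tested genes called by edgeR, 0 at an unadjusted p under 0.05 and 0 by DESeq2. The 8 blood markers summed to 9.60, 10.5 and 10.9 CPM and 12.1, 16.1 and 13.9 CPM. LYZ, which encodes lysozyme, was the most abundant in the triple knockout samples and was higher (1.24). In the double knockout samples the lysosomal CD68 was the most abundant. Of 4 tested markers 2 were lower, among them CD68 (-2.40), and 2 of the 8 had 3 counts or fewer in each sample. The 8 neural markers summed to 188, 184 and 196 CPM and 137.0, 152 and 175 CPM. TUBB3, a tubulin, was the most abundant in every sample but AGO1/2 knockout replicate 3, where SYT1 was at 99.4 and TUBB3 at 70.7 CPM. SNAP25 (2.88) and MAP2 (1.93) of 6 tested were higher, and SOX10 had 3 counts or fewer in each sample. The part of other cells in the results was not tested.

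MYC, part of the ribosome biogenesis genes and nearly all ribosomal protein genes were called lower in the triple knockout. MYC, a transcription factor that drives growth, was at 50.9, 58.8 and 65.8 CPM in the triple and 136, 159 and 169.8 CPM in the double knockout. All triple knockout samples were lower than all double knockout samples, and the WT mean was 279.7 CPM (-1.41, SE 0.14, edgeR adjusted p = 5.33e-06). Of 12 genes of the MYC network tested, 2 were lower and 10 were not called, with a median of -0.30. The other lower member was MNT, a repressor that competes with MYC for MAX (-0.38, edgeR adjusted p = 0.0205), and its call was lost without AGO1/2/3 knockout replicate 1 or 2 or AGO1/2 knockout replicate 2 or 3 (adjusted p = 0.0631, 0.105, 0.0617 and 0.0521), which left 1, while 3 were lower without AGO1/2 knockout replicate 1 and 4 in a fit of only the 6 samples. Of 28 genes of ribosome biogenesis, 10 (35.7%) were lower and 18 were not called, with a median of -0.37, and 26 had a fold change below 0. FBL, the methyltransferase of box C/D particles, was at 62.7, 69.3 and 73.1 CPM in the triple and 141, 109 and 135 CPM in the double knockout. NAT10, an RNA cytidine acetyltransferase, was at 45.2, 50.9 and 50.4 CPM in the triple and 96.3, 88.0 and 95.5 CPM in the double knockout. Neither gene had overlapping lines (-0.91, SE 0.15, edgeR adjusted p = 0.000395 for FBL and -0.93, SE 0.11, edgeR adjusted p = 1.97e-05 for NAT10). The count was 5 without AGO1/2/3 knockout replicate 1 or AGO1/2 knockout replicate 1 and 6 without AGO1/2/3 knockout replicate 2.

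Of 49 cytosolic ribosomal protein genes, 48 (98.0%) were lower and 1, RPL10, was not called, with a median of -0.76. RPL12 was at 294, 294 and 318 CPM in the triple and 626, 685 and 798 CPM in the double knockout. RPLP0, of the ribosomal stalk, was at 741, 779 and 861 CPM in the triple and 1312, 1325 and 1511 CPM in the double knockout. The lines did not overlap for these genes (-1.22, SE 0.13, edgeR adjusted p = 7.86e-06 for RPL12 and -0.80, SE 0.12, edgeR adjusted p = 0.000284 for RPLP0). RPL10 had a fold change of -0.36 (edgeR adjusted p = 0.0573; -0.44, adjusted p = 0.0427, without AGO1/2 knockout replicate 1), and the weakest of the called was RPL15 (-0.36, adjusted p = 0.0424; 0.109, 0.126, 0.0525, 0.0694 and 0.133 without AGO1/2/3 knockout replicate 1, 2 or 3 or AGO1/2 knockout replicate 2 or 3).

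Nearly all genes of DNA replication and mitosis had fold changes above 0 with few or no calls in the main fit, while cyclins and their inhibitors held calls. Of 35 DNA replication genes, 0 were called by edgeR, 1 was higher at an unadjusted p under 0.05 and 1 by DESeq2, and the median was 0.29, with 34 members above 0. A fit of only the 6 samples called 6 of them higher, and 6 of the mitosis genes. The largest value was that of GINS1, a subunit of the replicative helicase, at 73.1, 80.4 and 81.5 CPM in the triple and 51.6, 33.5 and 34.4 CPM in the double knockout. Its fold change was 0.97 (edgeR adjusted p = 0.0516), and without AGO1/2 knockout replicate 1 it was 1.20 (adjusted p = 0.0436). Of 32 mitosis genes, 1 was higher and 31 were not called, with a median of 0.44 and 31 members above 0. The called member was KIF23, a motor protein of the midbody (0.83, edgeR adjusted p = 0.046), and the call was lost without AGO1/2/3 knockout replicate 1, 2 or 3 or AGO1/2 knockout replicate 2 or 3 (adjusted p = 0.104, 0.0819, 0.143, 0.201 and 0.155), while 3 members were called without AGO1/2 knockout replicate 1. MKI67, the proliferation marker, was not called (0.47, SE 0.27, edgeR adjusted p = 0.259). Of 20 cyclins, kinases, inhibitors and pocket proteins tested, 9 (45.0%) were higher and 11 were not called, with a median of 0.55. CDKN2B, which encodes the CDK4/6 inhibitor p15, was at 50.9, 48.6 and 54.0 CPM in the triple and 10.7, 13.0 and 12.5 CPM in the double knockout. CCND1, the cyclin partner of CDK4 and CDK6, was at 2287, 2650 and 2713 CPM in the triple and 1141, 1133 and 1145 CPM in the double knockout. Both stood higher in each triple knockout sample (2.09, SE 0.40, edgeR adjusted p = 0.00165 for CDKN2B and 1.16, SE 0.15, edgeR adjusted p = 3.94e-05 for CCND1). RB1, which encodes the retinoblastoma protein (0.72), and CDKN1B, which encodes p27 (0.57), were also higher (edgeR adjusted p = 0.000841 and 0.00203), and E2F1 was not called (0.79, SE 0.28, edgeR adjusted p = 0.056).

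Of 28 p53 targets, 4 (14.3%) were higher, 4 (14.3%) were lower and 20 were not called, shares near those of all genes, with a median of 0.03. GDF15, a stress cytokine, was at 8.14, 7.64 and 5.76 CPM in the triple and 37.6, 58.2 and 77.7 CPM in the double knockout. PMAIP1, which encodes the BH3 protein NOXA, was at 181, 190.2 and 186 CPM in the triple and 58.9, 59.1 and 75.6 CPM in the double knockout. The first was lower and the second higher in every triple knockout sample (-3.01, SE 0.50, edgeR adjusted p = 0.000467 for GDF15 and 1.52, SE 0.15, edgeR adjusted p = 4.85e-06 for PMAIP1). FDXR, a mitochondrial ferredoxin reductase, was lower (-1.19, SE 0.14, edgeR adjusted p = 1.68e-05), and MDM2, the ubiquitin ligase of p53, was not called (-0.01, SE 0.15, edgeR adjusted p = 0.966). Higher targets numbered 2 without AGO1/2/3 knockout replicate 2 or AGO1/2 knockout replicate 2 or 3. Of 28 genes of the BCL2 family, death receptors and caspases tested, 9 (32.1%) were higher and 2 were lower, with a median of 0.15. BCL2, the founding inhibitor of apoptosis, was at 4.77, 5.99 and 5.93 CPM in the triple and 1.31, 0.862 and 0.663 CPM in the double knockout. BIRC2, which encodes the ubiquitin ligase cIAP1, was at 182, 184 and 219.5 CPM in the triple and 78.6, 84.2 and 89.3 CPM in the double knockout. The triple knockout samples were higher for both (2.54, SE 0.21, edgeR adjusted p = 8.3e-07 for BCL2 and 1.22, SE 0.11, edgeR adjusted p = 2.41e-06 for BIRC2). BIK, which encodes a BH3 protein, was lower (-0.73, edgeR adjusted p = 0.000532), and the other lower member, BBC3, which encodes PUMA (-0.94, adjusted p = 0.028), lost its call without AGO1/2/3 knockout replicate 2 or 3 or AGO1/2 knockout replicate 2 or 3 (adjusted p = 0.0993, 0.0905, 0.071 and 0.0756), which left 1 lower.

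Interferon-stimulated genes were lower in part, with the double knockout samples unlike each other. Of 41 tested, 14 (34.1%) were lower and 1, SAMD9L, was higher, with a median of -0.42. IFI27, an interferon-induced protein of mitochondria, was at 2.76, 1.89 and 1.66 CPM in the triple and 13.9, 18.97 and 3.83 CPM in the double knockout. OAS1, which senses double-stranded RNA, was at 1.53, 0.806 and 0.779 CPM in the triple and 6.85, 7.79 and 1.36 CPM in the double knockout. AGO1/2 knockout replicate 3 was nearer the triple knockout than replicates 1 and 2 for both genes. The lines did not overlap for IFI27 (-2.52, SE 0.41, edgeR adjusted p = 0.000375), and for OAS1 that replicate lay below the highest triple knockout sample (-2.33, SE 0.50, edgeR adjusted p = 0.00352). ISG15, a ubiquitin-like modifier, was at 17.2, 17.7 and 19.4 CPM in the triple and 63.2, 54.8 and 23.5 CPM in the double knockout. Its triple knockout samples were lower (-1.38, SE 0.25, edgeR adjusted p = 0.000993). SAMD9L was at 4.95, 3.22 and 4.13 CPM in the triple and 0.192, 0.207 and 0.111 CPM in the double knockout. All its triple knockout samples were above all double knockout samples. The count of lower members was 20 without AGO1/2 knockout replicate 3. Of 16 NF-kB targets tested, 1 was higher and 1 was lower, with a median of 0.12, and the count of higher targets was 2 without AGO1/2 knockout replicate 2. The called genes were TNFAIP3, which encodes the inhibitor A20 (0.73, SE 0.17, edgeR adjusted p = 0.00575), and the cytokine gene LIF (-0.91, SE 0.21, edgeR adjusted p = 0.00653).

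Genes that answer amino acid and endoplasmic reticulum stress were called lower in part, with 1 double knockout library standing apart for some of them. Of 30 genes of the ATF4 and ER stress list, 9 (30.0%) were lower and 21 were not called, with a median of -0.72. MTHFD2, a mitochondrial folate enzyme, was at 112, 130.2 and 135 CPM in the triple and 256, 218 and 499 CPM in the double knockout. It was lower in all triple knockout samples (-1.37, SE 0.32, edgeR adjusted p = 0.00592). ASNS, which makes asparagine, was at 21.6, 23.2 and 20.9 CPM in the triple and 38.3, 58.9 and 271 CPM in the double knockout. AGO1/2 knockout replicate 3 stood far above the others, and the fold change of -2.48 (edgeR adjusted p = 0.0234) became -1.18 (adjusted p = 0.223) without it, while the call was also lost without AGO1/2/3 knockout replicate 1, 2 or 3 (adjusted p = 0.0716, 0.0711 and 0.0772). ATF4 itself, the transcription factor of this response, was not called (-0.47, SE 0.27, edgeR adjusted p = 0.248), nor was the ER chaperone gene HSPA5 (-0.58, SE 0.32, edgeR adjusted p = 0.226). The count of lower members was 5 without AGO1/2/3 knockout replicate 1, 4 without AGO1/2/3 knockout replicate 2 and 3 without AGO1/2 knockout replicate 3.

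Of 21 NRF2 targets tested, 5 (23.8%) were lower and 16 were not called, with a median of -0.22. NQO1, a quinone reductase, was at 125, 142 and 153 CPM in the triple and 256, 305 and 319 CPM in the double knockout. ABCC2, an export pump for glutathione conjugates, was at 43.6, 30.5 and 36.7 CPM in the triple and 73.6, 149 and 140.0 CPM in the double knockout. Both were lower in each triple knockout sample (-1.07, SE 0.11, edgeR adjusted p = 7.86e-06 for NQO1 and -1.71, SE 0.28, edgeR adjusted p = 0.000457 for ABCC2). The count was 3 without AGO1/2/3 knockout replicate 1 or 2. Of 32 genes of glycolysis and hypoxia tested, 2 were higher and 1 was lower in the main fit, below the share of all genes, with a median of 0.00. SLC2A3 and the collagen prolyl hydroxylase gene P4HA2 (0.72, SE 0.18, edgeR adjusted p = 0.00933) were higher. HK2, which encodes a hexokinase, was at 10.7, 15.3 and 14.1 CPM in the triple and 44.7, 34.5 and 43.0 CPM in the double knockout. It was lower in every triple knockout sample (-1.61, SE 0.27, edgeR adjusted p = 0.000626), and GAPDH was not called (-0.10, SE 0.22, edgeR adjusted p = 0.795). A fit of only the 6 samples called 7 genes of this list higher and 6 lower, so the low share was not seen there. Of 31 genes of sterol and fatty acid synthesis, 7 (22.6%) were higher and 1 was lower, with a median of 0.49. With only the 6 samples 16 were higher, and with no filter 13. The count of higher genes was 4 without AGO1/2/3 knockout replicate 2 and 2 without AGO1/2/3 knockout replicate 3 or AGO1/2 knockout replicate 3, and the lower member, the desaturase gene FADS2 (-0.56, edgeR adjusted p = 0.0264), lost its call without AGO1/2/3 knockout replicate 1, 2 or 3 or AGO1/2 knockout replicate 1 or 3 (adjusted p = 0.0783, 0.0982, 0.0527, 0.0857 and 0.0601).

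Targets of YAP and TGF-beta had the highest median of the 36 lists. Of 27 tested, 14 (51.9%) were higher and 1 was lower, with a median of 0.74. TGFB2, a TGF-beta ligand, was at 22.9, 24.6 and 29.0 CPM in the triple and 6.63, 6.72 and 9.10 CPM in the double knockout. It was higher in all triple knockout samples (1.77, SE 0.23, edgeR adjusted p = 5.33e-05). PMEPA1 was at 28.2, 25.7 and 20.1 CPM in the triple and 1.06, 0.759 and 0.774 CPM in the double knockout. It was below 2 CPM in each double knockout sample and above 20 CPM in each triple knockout sample. The lower member, the ligand gene TGFB1 (-0.30, edgeR adjusted p = 0.0497), was called only just, and not without AGO1/2/3 knockout replicate 2 or 3 or AGO1/2 knockout replicate 1, 2 or 3 (adjusted p = 0.137, 0.123, 0.0567, 0.101 and 0.0944). Of 22 genes of ERK feedback, 9 (40.9%) were higher and 13 were not called, with a median of 0.31. IL17RD, a membrane inhibitor of FGF signalling, was at 722, 628 and 507 CPM in the triple and 32.7, 58.5 and 62.0 CPM in the double knockout. The lines were far apart (3.60, SE 0.24, edgeR adjusted p = 1.51e-07), and the WT mean was 33.4 CPM. DUSP6, the phosphatase that inactivates ERK, was not called (0.39, SE 0.28, edgeR adjusted p = 0.375), and EGR1, an immediate early gene, was not called (-0.61, SE 0.46, edgeR adjusted p = 0.393) but was lower without AGO1/2/3 knockout replicate 1 (-1.75, adjusted p = 0.00132), when 2 members were called lower.

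Of 16 WNT targets tested, 10 (62.5%) were higher and 3 were lower, with a median of 0.56. NKD1, a feedback inhibitor of the pathway, was at 148, 107 and 79.1 CPM in the triple and 25.04, 42.8 and 35.9 CPM in the double knockout. NKD2, its paralog, was at 0.510, 0.385 and 0.644 CPM in the triple and 2.05, 3.24 and 2.62 CPM in the double knockout. The first was higher and the second lower in every triple knockout sample (1.69, SE 0.23, edgeR adjusted p = 7.82e-05 for NKD1 and -2.35, SE 0.24, edgeR adjusted p = 5.43e-06 for NKD2). NOTUM, a secreted enzyme that inactivates WNT ligands (1.04), and EPHB2, a receptor of crypt cells (0.70), were higher (edgeR adjusted p = 0.00141 and 0.0145), EPHB2 not without AGO1/2/3 knockout replicate 3 or AGO1/2 knockout replicate 3 (adjusted p = 0.0517 and 0.0592). The scaffold gene AXIN2 had 1.39 (adjusted p = 0.0115; 0.0545 without AGO1/2 knockout replicate 3). The count of higher targets was 6 without AGO1/2/3 knockout replicate 1, 2 or 3 or AGO1/2 knockout replicate 1 and 4 without AGO1/2 knockout replicate 3. Of 30 clustered HOX genes tested, 17 (56.7%) were higher and 13 were not called, with a median of 0.56. HOXA9 was at 213, 172 and 178 CPM in the triple and 75.8, 78.5 and 67.8 CPM in the double knockout. HOXA10 was at 49.1, 50.2 and 55.9 CPM in the triple and 16.2, 14.1 and 13.4 CPM in the double knockout. These transcription factors of body axis identity were higher in all triple knockout samples (1.34, SE 0.10, edgeR adjusted p = 3.07e-07 for HOXA9 and 1.83, SE 0.13, edgeR adjusted p = 1.83e-07 for HOXA10). HOXB13, the most posterior gene of its cluster, was not called (-0.19, SE 0.14, edgeR adjusted p = 0.371).

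Of 25 genes of DNA methylation and polycomb, 8 (32.0%) were higher and 2 were lower, with a median of 0.26. The TET genes described with the miR-29 targets were among the higher members. EZH2, the polycomb methyltransferase, had 0.52 (edgeR adjusted p = 0.0485), and its call was lost without AGO1/2/3 knockout replicate 1, 2 or 3 or AGO1/2 knockout replicate 2 or 3 (adjusted p = 0.138, 0.104, 0.122, 0.237 and 0.127). The count of higher members was 5 without AGO1/2/3 knockout replicate 3 or AGO1/2 knockout replicate 2, and that of lower members (DNMT3B and the polycomb methyltransferase gene EZH1) was 1 without AGO1/2/3 knockout replicate 1 or AGO1/2 knockout replicate 1 or 2. Without AGO1/2/3 knockout replicate 2 or 3 or AGO1/2 knockout replicate 3 edgeR called 0 lower, beside 2 by DESeq2 and 2 at an unadjusted p under 0.05 with all samples. Of 15 ephrins and Eph receptors tested, 5 (33.3%) were higher and 1 was lower, with a median of 0.24. EFNB2, a membrane-spanning ephrin, was at 70.9, 79.1 and 78.5 CPM in the triple and 17.9, 22.6 and 23.6 CPM in the double knockout. EPHA1, a receptor, was at 2.40, 1.96 and 1.52 CPM in the triple and 6.34, 6.28 and 6.89 CPM in the double knockout. The ephrin was higher and the receptor was lower in every triple knockout sample (1.83, SE 0.17, edgeR adjusted p = 2.55e-06 for EFNB2 and -1.71, SE 0.14, edgeR adjusted p = 8.3e-07 for EPHA1), and 2 members were called lower without AGO1/2/3 knockout replicate 1 or AGO1/2 knockout replicate 3.

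The study followed 22 genes that it had picked for Argonaute binding in their 3′UTR, seen in the eCLIP samples of this series. The list comes from the same study and is not taken as independent evidence. Whether the RNAseq values played a part in its choice is not stated. Of the 22, 7 (31.8%) were higher and 9 (40.9%) were lower in the triple than in the double knockout, with a median of -0.39, which was above 0 when 10 counts were required in every sample. The higher members included IL17RD, and TMEM245, a membrane protein, at 404, 415 and 456 CPM in the triple and 199, 199 and 208 CPM in the double knockout. Its lines did not overlap (1.07, SE 0.11, edgeR adjusted p = 7.22e-06). The lower members included S100A14, MAL2, ABCC2, PRSS8 and MYC. DDIT4, an inhibitor of mTOR, was at 16.7, 14.1 and 11.4 CPM in the triple and 46.5, 34.1 and 122.7 CPM in the double knockout. Its value of -2.27 (edgeR adjusted p = 0.00864) was -1.55 (adjusted p = 0.057) without AGO1/2 knockout replicate 3.

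Of 12 housekeeping genes and qPCR normalizers, 2 were higher, 1 (RPLP0) was lower and 9 were not called, with a median of 0.09. GUSB, which encodes a lysosomal glucuronidase, was higher (0.68, SE 0.13, edgeR adjusted p = 0.00122). ACTB, which encodes beta-actin, had 0.47 (edgeR adjusted p = 0.0379), and its call was lost without AGO1/2/3 knockout replicate 2 or 3 or AGO1/2 knockout replicate 2 or 3 (adjusted p = 0.117, 0.162, 0.146 and 0.157). HPRT1, of purine salvage, was not called (-0.32, SE 0.18, edgeR adjusted p = 0.231), so that most of these references stayed within the test. Over the 36 lists there were 807 distinct genes, 745 of them tested and 77 in more than 1 list, so that the lists are not separate observations.

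**Figure D5:**
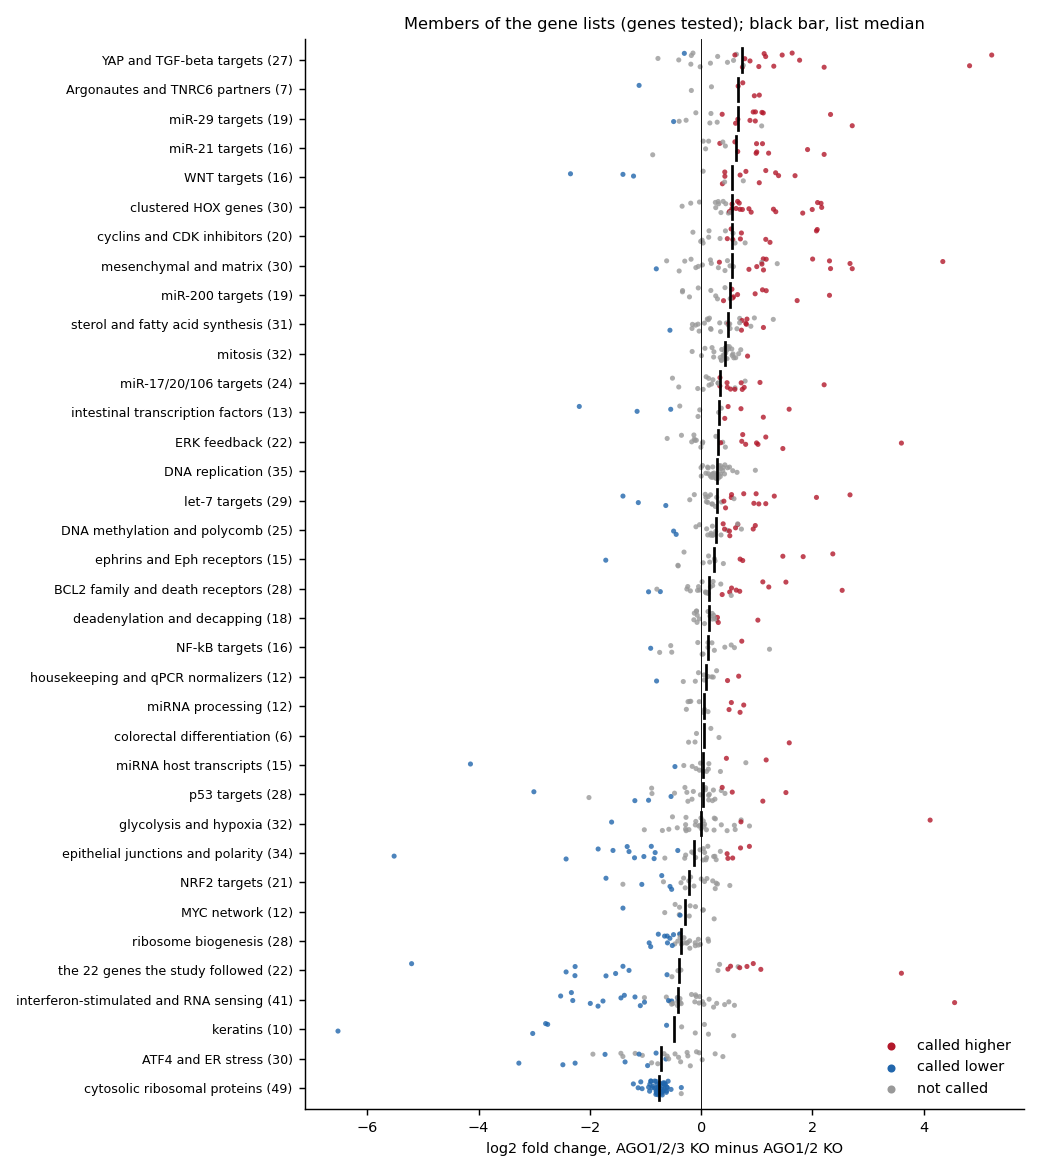
Log2 fold change, triple minus double knockout (horizontal axis), of the tested members of each of the 36 gene lists, one point per gene with called genes coloured and a bar at each median, sorted by median. The lists of YAP and TGF-beta targets, WNT targets and several miRNA targets stood at the upper end and the cytosolic ribosomal proteins at the lower end.

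Along the chromosomes the median change stayed near 0. Genes with at least 1 CPM were grouped into 260 windows of 10 Mb with 20 genes or more, and the median of the window medians was 0.05. The lowest window, with a median of -0.16 over 26 genes, was chr8:1-10000000, and the highest, with 0.35 over 43 genes, was chr10:10000001-20000000. In 10 windows the median was beyond 0.25 in size. The last window of chromosome 8, chr8:140000001-150000000, had a median of -0.13 over 88 genes. Against WT it had -0.67 in the double and -0.75 in the triple knockout, values that share samples with each other. This shift against WT was wider than that window. From chr8:70000001 to chr8:140000000 the window medians against WT were -0.71 to -0.47 in the double knockout, windows under 20 genes included. In the triple knockout they were -0.80 to -0.40, except 0.03 over 12 genes at chr8:130000001-140000000. WT levels given for genes in these windows are to be read beside these medians, and the cause was not tested. The 30 mitochondrial genes had a median of -0.34, triple minus double knockout. Their share of all counts was 7.43, 6.64 and 6.66% in the triple and 8.52, 8.63 and 9.11% in the double knockout samples. Each triple knockout sample was below each double knockout sample, and the part of this difference in the other results was not tested.

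The change with the added loss of AGO3 was set beside the change with loss of AGO1 alone or AGO2 alone, comparisons with which it shares no sample. Over the 22842 genes tested, the Spearman correlation of the log2 fold changes was -0.00384 with AGO1 knockout against WT and 0.111 with AGO2 knockout against WT, and Pearson's correlation was 0.0472 and 0.0833. Over the 15967 genes whose mean reached 1 CPM, the Spearman values were -0.00694 and 0.109. These are descriptions across genes, which are not independent, and all were near 0. Per the file headers, the AGO2 knockout samples were quantified in a quasi mode that the other headers do not name. For single genes the 3 changes could be far apart: IL17RD had 3.60 with added loss of AGO3, -0.16 with loss of AGO1 and -0.53 with loss of AGO2. CDK6 had 2.07, 0.36 and 0.75, and HMGA2 had 0.95, 0.36 and 0.48.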

How the data were processed

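The authors deposited 1 table of estimated counts per RNAseq sample, 15 in all. Per the submitters' processing notes, reads were aligned to hg38 with STAR 2.5.3a and quantified with Salmon 0.11.0, and the counts were not normalized. Between 30.8 and 34% of all values of a sample, those of 0 included, were not whole, and counts were rounded. The 8 eCLIP samples were not analysed here.

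In R 4.3.3, edgeR 4.0.16 filtered genes (filterByExpr), scaled samples (TMM) and fitted 5 group means to all 15 samples (common biological coefficient of variation 0.152). The triple minus double knockout contrast was tested by quasi-likelihood with Benjamini-Hochberg adjustment and called at 0.05 or less, and DESeq2 1.42.0 was an alternative. Python 3.11.15 with numpy 2.4.6, pandas 2.3.3, scipy 1.17.1 and matplotlib 3.10.9 did the rest. The fits were tested on simulated data.

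The 36 gene lists and the members were chosen with earlier results of these data known. Named were AGO1 to AGO4, list members with a large change or a defining role, and the 15 largest increases and 15 largest decreases among called protein-coding genes averaging 1 CPM or more with no overlap between the lines. Windows were 10 Mb with at least 20 genes. Seed matches were the 7 bases that pair with positions 2 to 8 of a miRNA (let-7a-5p, miR-29a-3p, miR-27a-3p, miR-125b-5p, miR-21-5p, miR-16-5p, miR-17-5p, miR-19b-3p, miR-200c-3p, miR-30c-5p, miR-122-5p, miR-1-3p) in the 3′UTR of the Ensembl canonical transcript of GENCODE 44, and miR-124-3p, with no sequence at hand, was not counted. Alternatives were the size factors and the test of DESeq2, total counts alone, no filter, a filter of 10 counts in every sample, the 6 samples alone, no AGO2 knockout samples, a replicate block, a 2-fold minimum, 8-base matches, and each of the 6 samples left out.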

Additional observations from a re-analysis of the deposited data

How the results depend on the processing

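The counts of 2720 higher and 2295 lower genes stayed within 1.5 times under each other normalization, filter, tool and set of samples, at 2249 to 3124 higher and 2057 to 2868 lower, and leaving out 1 sample gave 1825 to 2255 higher and 1587 to 2132 lower. With a minimum change of 2-fold they were 677 and 828. With a replicate block the counts were 2586 and 2127. The deviations of samples with the same replicate number correlated at -0.114, 0.0852 and -0.0695 across genes, and not every sample correlated best with its own number, so the numbers do not pair samples.

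List medians are given here minus the median of all genes. With at least 10 counts in every sample they were 0.48 for miR-29 targets, 0.30 for mesenchymal genes, 0.13 for intestinal transcription factors, -0.11 for colorectal differentiation, 0.41 for WNT targets and 0.29 for the 22 genes, with fewer members tested, so that the direction turned for colorectal differentiation and for the 22 genes. With only the 6 samples the keratin median was -0.63. Calls in that fit numbered 6 higher for DNA replication, 6 higher for mitosis, 2 higher for NF-kB targets, 4 lower for the MYC network, 18 lower for ATF4 and ER stress, 7 higher and 6 lower for glycolysis and hypoxia, 16 higher for sterol and fatty acid synthesis, 9 lower for NRF2 targets and 2 lower each for YAP and TGF-beta targets and housekeeping genes. With no filter they were 14 lower for ATF4 and ER stress, 5 higher and 3 lower for glycolysis and hypoxia, 13 higher for sterol and fatty acid synthesis, 3 higher for mitosis and 1 higher for deadenylation and decapping. With total counts alone they were 6 higher for WNT targets, 3 lower for ephrins and 1 higher for deadenylation and decapping, and 10 counts in every sample gave 3 higher intestinal transcription factors, 3 lower ephrins and 0 higher of colorectal differentiation (1 by DESeq2, 1 at an unadjusted p under 0.05 in the main fit). A member of miRNA processing was lower with total counts alone, by DESeq2, with 10 counts in every sample and without AGO1/2 knockout replicate 1. A miR-21 target was lower by DESeq2, with no filter, with only the 6 samples and without that replicate, and a miR-200 target only without it. Mesenchymal genes held 2 lower under 6 alternatives. With 8-base matches alone, the median with a match minus that without was 0.14 for miR-29a-3p, 0.15 for miR-21-5p, 0.12 for miR-16-5p, 0.18 for miR-17-5p and 0.016 for miR-122-5p. With total counts alone the highest window was 0.29 and the last window of chromosome 8 was -0.19. The cause was not tested.

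Over the 6 samples left out in turn, list medians ranged from 0.021 to 0.14 for miRNA processing, 0.25 to 0.45 for let-7 targets, 0.57 to 0.80 for miR-29 targets, 0.35 to 0.43 for miR-17 family targets, 0.45 to 0.59 for miR-200 targets, 0.57 to 0.71 for miR-21 targets, -0.12 to -0.052 for epithelial genes, 0.40 to 0.75 for mesenchymal genes, 0.14 to 0.40 for intestinal transcription factors, -0.0026 to 0.21 for colorectal differentiation, -0.0048 to 0.24 for NF-kB targets, -0.38 to -0.15 for NRF2 targets, 0.16 to 0.47 for DNA replication, 0.24 to 0.71 for mitosis, -0.88 to -0.43 for ATF4 and ER stress, -0.0098 to 0.070 for miRNA host transcripts, -0.042 to 0.054 for p53 targets, -0.053 to 0.054 for glycolysis and hypoxia, 0.031 to 0.14 for housekeeping genes, 0.23 to 0.37 for DNA methylation and polycomb, 0.56 to 0.63 for HOX genes, -0.46 to -0.22 for the 22 genes and 0.10 to 0.27 for the BCL2 family, and the difference for miR-122-5p matches from 0.01996 to 0.0504.

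Of the 179 genes named and tested, 153 were called, and 14 alternatives were run. Of the called genes, 132 kept the call in every alternative that tested them. The other 21 lost it in at least 1, in each case with some sample left out. Genes with few counts in a line, such as CHST4 and KRT13, could not pass the filter that asks for a minimum count in every sample. Their calls were therefore not checked under that filter. ACTB, CNOT8, DNMT3B, EZH1, EZH2, KIF23, RPL15, TGFB1 and XRN1 also lost the call under another normalization, filter or set of samples. A further 13 passed the threshold under some alternative, and no called gene changed its direction. At 28294976 to 40567975 counts per sample, genes under about 1 CPM had few counts. Every genotype is 1 line, all p-values rest on 3 samples per line, and rounding, multiply mapped reads and the uncertain assignment of overlapping genes were not examined.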

Other observations

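Several groups of neighbouring genes moved together. They were chosen after their values were seen. Of 16 genes tested at chr11:5253188-5678434, most of them olfactory receptor genes of the OR51 family and their pseudogenes, 15 were lower and 1 was not called, with a median of -2.88. OR51B5 was at 7.25, 7.43 and 8.51 CPM in the triple and 72.0, 60.8 and 79.7 CPM in the double knockout, and the WT mean was 78.0 CPM. OR51B4 was at 1.91, 1.96 and 2.10 CPM in the triple and 19.98, 18.7 and 24.1 CPM in the double knockout, with a WT mean of 18.8 CPM. The double knockout was near WT for both genes and every triple knockout sample was lower, and gene models overlap here, so how counts divide between them is uncertain. Of 9 kallikrein genes tested at chr19:50906351-51084245, 6 were lower and 3 were not called, with a median of -1.55. KLK7, a serine protease that cleaves desmosomes in skin, was at 5.95, 4.34 and 4.47 CPM in the triple and 41.1, 48.2 and 40.2 CPM in the double knockout. Its lines did not overlap (-3.13, SE 0.22, edgeR adjusted p = 2.19e-07). At chr12:20810702-21239796, 5 of 5 tested genes of the SLCO1B organic anion transporters and their readthrough models were higher, by 2.08 to 2.53, and these models share exons. SLCO1B1 was at 5.97, 6.17 and 6.30 CPM in the triple and 1.19, 1.14 and 1.07 CPM in the double knockout. Each triple knockout sample was higher (2.44, SE 0.17, edgeR adjusted p = 2.19e-07).

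Small nucleolar RNAs and their hosts were lower in part. Of 194 small nucleolar RNA genes tested, 41 (21.1%) were lower and 153 were not called, with a median of -0.44. Among 26 long noncoding host genes of the SNHG series, picked after the values were seen, 16 (61.5%) were lower and 10 were not called, with a median of -0.51. Of 107 small nuclear RNA genes, 14 were lower and 3 were higher, with a median of -0.24. Processed pseudogenes, many of them copies of ribosomal protein messages, were lower for 71 (8.53%, below the 10.0% of all genes) and higher for 24 of 832, with a median of -0.14.

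At the other end of the range, 6 protein-coding genes had 3 counts or fewer in each double knockout sample and a mean of 1 CPM or more in the triple knockout: SNAI2, CHST4, DOCK2, MARCHF4, C3AR1 and TRIM6-TRIM34, a readthrough model whose counts are uncertain. The reverse held for 2 genes, KRT13 and KLK5. PRKAA2, a catalytic subunit of AMP-activated kinase, was at 116, 128 and 132 CPM in the triple and 10.7, 12.8 and 11.8 CPM in the double knockout. SOX4, a transcription factor of progenitor cells, was at 482, 395 and 298 CPM in the triple and 30.8, 45.7 and 42.7 CPM in the double knockout. Both were higher in each triple knockout sample (3.41, SE 0.16, edgeR adjusted p = 5.33e-09 for PRKAA2 and 3.30, SE 0.31, edgeR adjusted p = 2.72e-06 for SOX4), and the WT means were 11.7 and 222 CPM. These genes were also chosen with their values known.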
